A study of Mus musculus with 4 samples.

Results

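The genes that carry the cell's answer to low oxygen and the enzymes that break down glucose were followed as 1 set of 36 protein-coding genes, out of 21581 in the mouse annotation, across H3K27ac peak lists of sorted fetal cells. The rule lists genes by function and uses no measured value. Every peak interval within 50 kb of a start site of a member was taken from each of the 4 lists, which gave 237 of 40899 and 203 of 34360 intervals in EGFP+ and EGFP- cells of the limb, and 213 of 36231 and 180 of 30716 in EGFP+ and EGFP- cells of the trunk. All cells came from male E14.5 fetuses that were made by tetraploid aggregation from 1 homozygous embryonic stem cell clone, in which EGFP under a minimal beta-globin promoter sits upstream of the start site of Col2a1, so that both fractions carry the sensor. Limbs from stylopod to autopod, and trunks from neck to tail without internal organs, were pooled and sorted by FACS into EGFP+ cells, in which the Col2a1 locus is active as in chondrocytes, and EGFP- cells, which are the remaining cells of that tissue. There was 1 library for each population. Differences between populations are therefore described without a test, and intervals given below are at the 95% level and cover counting error only.

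Cells sense oxygen through the HIF transcription factors. When oxygen is present, prolyl hydroxylases of the Egln family modify the HIF alpha subunit and the Vhl protein marks it for destruction, while in low oxygen the alpha subunit pairs with Arnt and binds short ACGTG or GCGTG cores near its target genes. Many of these targets take up glucose, run glycolysis and export lactate, and others act in vessel growth, acid balance and mitophagy. Fetal cartilage has no vessels and its chondrocytes depend on HIF, which is why the question was whether these genes carry H3K27ac, a mark of active promoters and enhancers, in EGFP+ cells and not in EGFP- cells.

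The sort was checked with marker genes. All 10 chondrocyte markers had a promoter interval in both EGFP+ lists, against 5 in limb and 4 in trunk EGFP- cells, and Col2a1 itself reached 110 and 84 reads in limb and trunk EGFP+ cells, 14 reads in limb EGFP- cells and no promoter summit in trunk EGFP- cells. Of the 5 markers each of muscle, endothelium, blood and immune cells, and epithelium, at most 1 of a list had a promoter interval in any population. For muscle it was Myog, in limb EGFP+ cells alone, with 13 reads. For endothelium it was Tek, in EGFP- cells of both tissues, with 13 reads each. The EGFP- lists thus hold little of the defining promoters of these cell types, whereas the paper reports high RNA of Myod1, Myog and Krt14 in EGFP- cells. Of the 5 neural and glial markers 1 or 2 had one in each population, and of the 5 tendon and connective tissue markers 2 in each EGFP+ list and 3 in each EGFP- list. Of the 5 osteoblast markers 3 had a promoter interval in each EGFP+ list, 2 in limb EGFP- cells and 0 in trunk EGFP- cells. The part of such cells in the results was not tested. Limb and trunk libraries came from different sequencing lanes, and an effect of the lane cannot be told apart from one of the tissue. More than 1 read length and sonicator are given for the study without saying which library had which, and the peak names of the trunk EGFP- list carry another replicate number than its sample label.

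Nearly all members were marked at their promoters in both fractions. A promoter interval, from 2 kb upstream to 500 bp downstream of any protein-coding transcript start, was present for 34 of the 36 genes in EGFP+ and 30 in EGFP- cells of the limb, and 33 in EGFP+ and 30 in EGFP- cells of the trunk. Over all protein-coding genes the share with a promoter interval was 54.4, 51.6, 52.6 and 52.7% in the same order. A gene with more starts has more promoter window, and Aldoa had 47 starts and Pkm 36. With the 5′-most start of each gene alone the counts of members were 30, 25, 30 and 25. The share of all genes was not computed with that start alone, so these counts have no background here. For 29 members the promoter was marked in all 4 lists, as for 47.4% of all genes. Epas1, which encodes the HIF-2 alpha subunit, and Pfkp, the platelet form of phosphofructokinase, were the members with promoter intervals in both EGFP+ lists and in neither EGFP- list, a pattern of 1.45% of all genes. Epas1 reached 14 reads in limb and 10 reads in trunk EGFP+ cells and Pfkp 39 and 23 reads, so that the Epas1 promoter was among the weakest of the set. Car12, a membrane carbonic anhydrase, had a promoter interval in limb EGFP+ cells alone, with 27 reads. Egln3 lacked one in limb EGFP- cells and Eno2 in trunk EGFP- cells. Car9, another membrane carbonic anhydrase and a HIF target, and Adm, which encodes the vasodilator peptide adrenomedullin, had no promoter interval in any list.

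**Figure D1:**
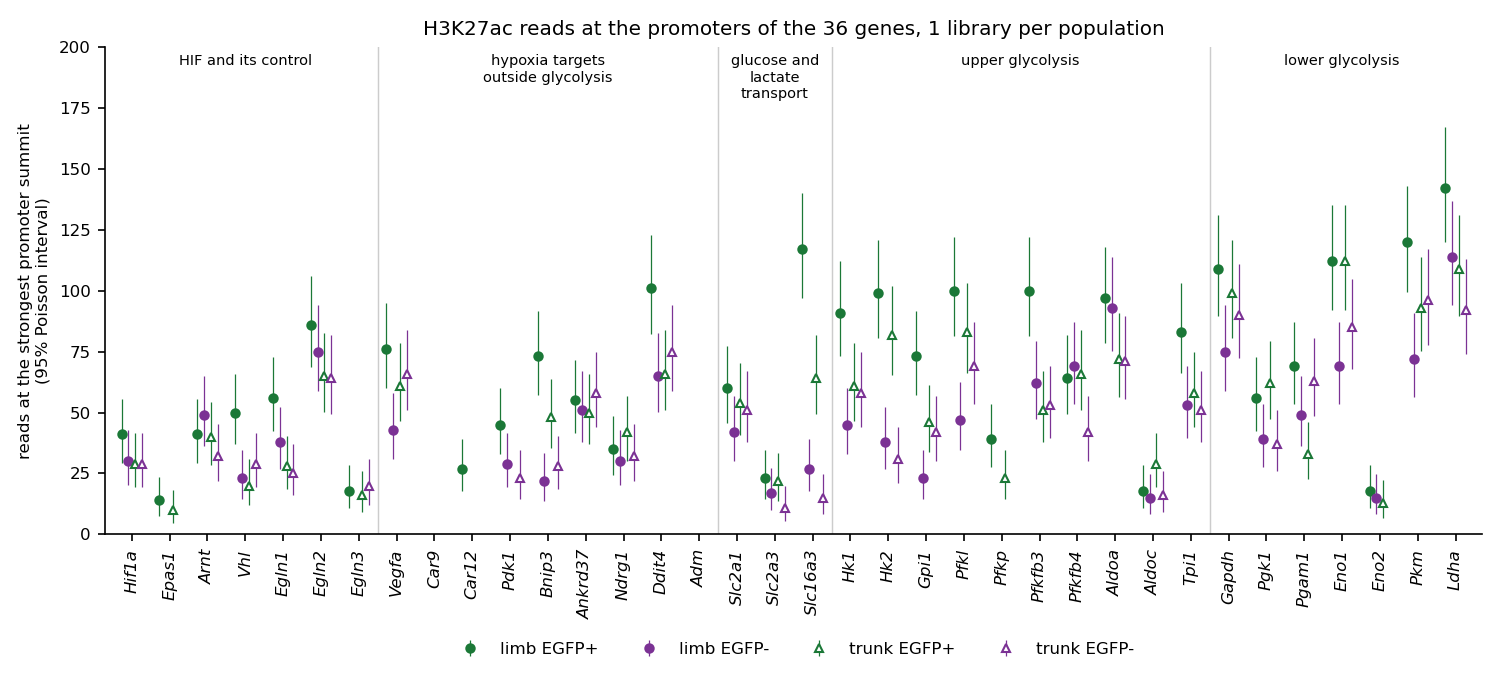
Reads at the strongest H3K27ac summit in the promoter windows of each member (y axis), with the 95% Poisson interval, for limb (filled circles) and trunk (open triangles) EGFP+ (green) and EGFP- (purple) cells, with 1 library each. No symbol means no summit in the window. Slc16a3 holds 117 and 64 reads in limb and trunk EGFP+ cells and 27 and 15 in EGFP- cells, and Car9 and Adm have no symbol.

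The strength of a promoter was read as the number of reads at its strongest summit, which follows from the fold and the −log10 p that the lists give for each summit. For each tissue the EGFP+ reads were divided by the EGFP- reads after scaling by the background of each library, which was 1.49, 1.63, 1.60 and 1.83 reads per 200 bp in limb EGFP+, limb EGFP-, trunk EGFP+ and trunk EGFP- cells. The strongest summit was taken in each fraction on its own, so the summits of a ratio can lie at different positions in the promoter windows. Over all genes with a summit in both fractions the median ratio was 1.34 in limb and 1.18 in trunk, which is 0.42 and 0.24 on the log2 scale, so a ratio is read against these medians and not against 1. The members' median was 1.60 in limb, over 30 genes, and 1.26 in trunk, over 29 genes. In limb 19 of the 30 reached a ratio of at least 1.5 (63.3%), against 35.0% of all genes, and 0 of 30 were at or below the inverse, against 1.5% of all genes. In trunk 9 of 29 reached it (31.0%), against 16.5% of all genes, and 1 of 29, Pgam1, was at or below the inverse, against 2.35%. When only promoters with a mean of at least 40 reads in the 2 fractions were counted, the limb count was 17 of 23, against 32.9% of all such genes, and the trunk count 4 of 19, against 13.6%. Counted from the median of all genes, 7 of 30 members in limb were at least 1.5 times the median ratio, against 9.86% of all genes, and 7 of 29 in trunk, against 6.23%.

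Of the 28 members with a ratio in both tissues, 5 reached 1.5 in both, against 9.16% of all genes, namely Slc16a3, Hk2, Pgk1, Eno1 and Bnip3. The scaled reads of both EGFP+ lists lay above those of both EGFP- lists for 17 of the 28, against 43.7% of all genes, so most members with all 4 values have this order. For Slc16a3, Hk2 and Bnip3 the whole counting interval lay above the median of all genes in both tissues, as for 1.63% of all genes. In limb the same was true of 8 of 30 members, against 8.07% of all genes, which also include Vhl, Hk1, Gpi1, Pfkl and Pkm. In trunk it was true of 5 of 29, against 5.02%, which also include Pfkfb4 and Pgk1. The interval of Pgam1 in trunk was the only one that lay wholly below the median. A higher ratio can come from more cells of the fraction with the mark or from more of the mark per cell, which cannot be told apart in pooled nuclei.

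**Figure D2:**
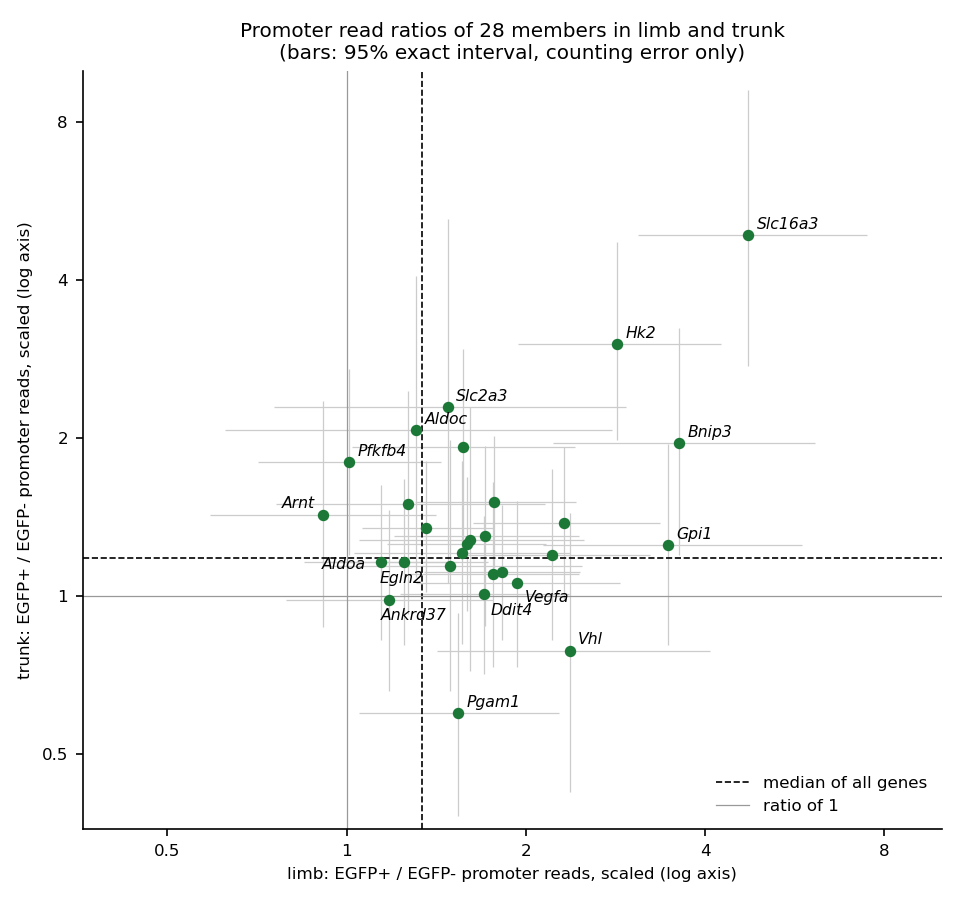
EGFP+ to EGFP- ratio of promoter summit reads in limb (x axis) and trunk (y axis), both on log axes, for the 28 members with a ratio in both tissues. Bars are 95% exact intervals for counting error, dashed lines the medians of all genes (1.34 and 1.18). Slc16a3 and Hk2 lie at the upper right and Pgam1 at the bottom.

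Among the transporters, Slc16a3, the monocarboxylate transporter that carries lactate out of glycolytic cells (chr11:120838846-120851694, plus strand), gave the highest ratio in both tissues. Its promoter held 117 reads in EGFP+ and 27 in EGFP- cells of the limb, and 64 in EGFP+ and 15 in EGFP- cells of the trunk. Both EGFP+ values exceeded both EGFP- values, with a ratio of 4.73 (3.09 to 7.49) in limb and 4.88 (2.75 to 9.22) in trunk. The glucose transporters differed less. Slc2a1, the widely used glucose transporter, held 60, 42, 54 and 51 reads in the same order of populations, with ratios of 1.56 (1.03 to 2.37) and 1.21 (0.810 to 1.81). Slc2a3, a transporter of high affinity, held 23, 17, 22 and 11 reads, and its ratios of 1.48 (0.756 to 2.95) and 2.29 (1.06 to 5.22) had intervals that reached below the medians of all genes.

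In upper glycolysis, Hk2, the inducible hexokinase that traps glucose in the cell (chr6:82699740-82751469, minus strand), held 99 reads in EGFP+ and 38 in EGFP- cells of the limb, and 82 in EGFP+ and 31 in EGFP- cells of the trunk. Its ratio was 2.85 (1.94 to 4.25) in limb and 3.02 (1.98 to 4.73) in trunk, and each EGFP+ value was above both EGFP- values. The values of Hk2 come from different positions. From the nearest start its summits lay at 495 bp in EGFP+ and −118 bp in EGFP- cells of the limb. In the trunk they lay at 532 and −554 bp. Hk1, the hexokinase of most tissues, held 91, 45, 61 and 58 reads, with 2.21 (1.53 to 3.23) in limb and 1.20 (0.825 to 1.75) in trunk. The limb excess without a like trunk value was also seen at Gpi1, the isomerase of the second step, with 73, 23, 46 and 42 reads and ratios of 3.47 (2.14 to 5.81) and 1.25 (0.806 to 1.95). Pfkl, the liver form of phosphofructokinase, held 100, 47, 83 and 69 reads, with 2.32 (1.63 to 3.36) in limb and 1.38 (0.987 to 1.92) in trunk. The difference between the tissues was not tested for these genes.

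Pfkfb3 and Pfkfb4 make and remove fructose 2,6-bisphosphate, which activates phosphofructokinase. Pfkfb3 held 100, 62, 51 and 53 reads, with ratios of 1.76 and 1.10. Pfkfb4 held 64, 69, 66 and 42 reads, with 1.01 (0.710 to 1.44) in limb and 1.80 (1.20 to 2.71) in trunk, the opposite order of tissues. Aldoa, the main aldolase of the fetus, held 97, 93, 72 and 71 reads and had ratios of 1.14 (0.848 to 1.53) and 1.16 (0.824 to 1.63). Aldoc, the brain-type aldolase, held 18, 15, 29 and 16 reads, with 1.31 and 2.07 (1.09 to 4.08). Tpi1, the triose isomerase, held 83, 53, 58 and 51 reads, with 1.71 and 1.30.

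Lower glycolysis held the most heavily marked promoters of the set. The median of its members was 109 reads in EGFP+ and 69 in EGFP- cells of the limb, and 93 in EGFP+ and 87.5 in EGFP- cells of the trunk, against 66.5, 44, 52.5 and 46.5 over all members. The highest single value was that of Ldha, the lactate dehydrogenase subunit that turns pyruvate into lactate, with 142, 114, 109 and 92 reads. Its ratios of 1.36 (1.06 to 1.76) and 1.35 (1.02 to 1.81) were close to the medians of all genes, so its mark was high in all 4 populations. Pkm, the pyruvate kinase of most tissues, held 120, 72, 93 and 96 reads and had 1.82 (1.35 to 2.47) in limb and 1.11 (0.824 to 1.49) in trunk. Gapdh held 109, 75, 99 and 90 reads, with 1.59 and 1.26. Eno1, the common enolase, held 112, 69, 112 and 85 reads, with 1.77 (1.30 to 2.43) and 1.51 (1.13 to 2.02). Its neuronal paralogue Eno2 held 18, 15 and 13 reads in limb EGFP+, limb EGFP- and trunk EGFP+ cells. These 3 values of Eno2 overlap in their counting error. Pgk1, the first enzyme of glycolysis that yields ATP, held 56, 39, 62 and 37 reads, with 1.57 (1.02 to 2.42) and 1.92 (1.25 to 2.96). Pgam1, the phosphoglycerate mutase of most tissues, held 69 reads in EGFP+ and 49 in EGFP- cells of the limb, and 33 in EGFP+ and 63 in EGFP- cells of the trunk. It was the member with the lowest trunk ratio, 0.599 (0.381 to 0.927), beside 1.54 (1.05 to 2.27) in limb. The summits of Pgam1 lay at −287 bp in EGFP+ and 496 bp in EGFP- cells of the limb, and at −301 and 442 bp in the trunk. Both of its ratios therefore compare different positions.

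The HIF genes and their regulators did not share a direction. Hif1a, the oxygen-labile subunit that drives glycolytic targets, held 41 reads in EGFP+ and 30 in EGFP- cells of the limb, and 29 in EGFP+ and 29 in EGFP- cells of the trunk, with ratios of 1.49 (0.910 to 2.48) and 1.14 (0.659 to 1.98). Arnt, its constant partner, held 41, 49, 40 and 32 reads and had the lowest limb ratio of all members, 0.914 (0.589 to 1.41), beside 1.43 (0.875 to 2.35) in trunk. Both genes had intervals that include the medians of all genes. Vhl held 50, 23, 20 and 29 reads, which gave 2.37 (1.42 to 4.08) in limb and 0.788 (0.423 to 1.44) in trunk. In limb its summits lay at 206 bp in EGFP+ and −258 bp in EGFP- cells. Of the prolyl hydroxylases, Egln1 held 56, 38, 28 and 25 reads (1.61 and 1.28), and Egln2 86, 75, 65 and 64 reads (1.25 and 1.16). Egln3, the hydroxylase that HIF itself induces, held 18 reads in limb EGFP+, 16 in trunk EGFP+ and 20 in trunk EGFP- cells, with a trunk ratio of 0.915 (0.443 to 1.86). None of the 6 members of this group with a trunk ratio reached 1.5 in trunk.

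Among the hypoxia targets outside glycolysis, Bnip3, a receptor for mitophagy (chr7:138490690-138511253, minus strand), had the highest ratio of its group in both tissues. It held 73 reads in EGFP+ and 22 in EGFP- cells of the limb, and 48 in EGFP+ and 28 in EGFP- cells of the trunk, with ratios of 3.62 (2.22 to 6.13) and 1.96 (1.20 to 3.24). Its summits lay at −477 bp in EGFP+ and −239 bp in EGFP- cells of the limb, and at 169 and 144 bp in the trunk. Vegfa, the growth factor that draws vessels towards cartilage, held 76, 43, 61 and 66 reads, with 1.93 (1.31 to 2.88) in limb and 1.06 (0.734 to 1.52) in trunk. Ddit4, an inhibitor of mTOR signalling, held 101, 65, 66 and 75 reads, with 1.70 (1.23 to 2.36) and 1.01 (0.712 to 1.42). Pdk1, a kinase of pyruvate dehydrogenase, held 45, 29 and 23 reads in limb EGFP+, limb EGFP- and trunk EGFP- cells, and its trunk EGFP+ interval reached the promoter window with its summit outside it. Ankrd37, a small ankyrin protein, held 55, 51, 50 and 58 reads, with 1.18 (0.790 to 1.76) and 0.985 (0.661 to 1.46). Ndrg1, a stress-responsive protein, held 35, 30, 42 and 32 reads, with 1.27 and 1.5. The values of Ankrd37 and Ndrg1 did not separate the fractions beyond counting error.

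The HIF core was searched in the promoters of the RefSeq table, which run from 250 bases before to 50 bases after a start. The letters ACGTG and GCGTG were searched on both strands, and overlapping matches were counted once. Of the 36 members 33 were in the table, and 28 of these 33 held a core in at least 1 promoter (84.8%), against 46.7% of the 27025 genes of the table. By promoter the share was 35 of 45 (77.8%), against 43.8% of all. The table holds more genes than the 21581 protein-coding ones used elsewhere, so its shares are over a wider set. The members' promoters were also richer in G and C, with a median of 62.3%, against 52.7% of all, and the part of base composition in the count of cores was not tested. The SOX core, AACAAT or ACAAAG on either strand, which the chondrocyte factors of the Sox family bind, was in 4 of the 45 promoters (8.89%), against 27% of all. A core is only a match of letters. Gpi1, with a high limb ratio, held none in its promoter of the table, and Adm, whose promoter carried no interval in any list, held 2.

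The promoters of 4 members are shown because they set the letters beside unlike marks. They were taken by the number of HIF cores in the longest stretch outside exons within the bases before the start, with ties by symbol, where Gapdh, Hk2 and Pgk1 hold 2 cores as Adm and Ankrd37 do. Exons were left out of the choice and the print alone, so Egln2 and Ldha, with 5 cores each in a promoter of the table, hold 0 and 1 in that stretch. The capitals mark the cores on either strand. The sequences are from RefSeq and run 5′ to 3′ on the strand of the gene, at chr7:138511254-138511485 (minus strand) for Bnip3, chr19:41900060-41900309 (plus) for Pgam1, chr7:110226614-110226857 (plus) for Adm and chr8:46452912-46453137 (minus) for Ankrd37 on GRCm39. Bnip3 holds 4 cores, Pgam1 holds 3, and Adm and Ankrd37 hold 2 each.
Bnip3: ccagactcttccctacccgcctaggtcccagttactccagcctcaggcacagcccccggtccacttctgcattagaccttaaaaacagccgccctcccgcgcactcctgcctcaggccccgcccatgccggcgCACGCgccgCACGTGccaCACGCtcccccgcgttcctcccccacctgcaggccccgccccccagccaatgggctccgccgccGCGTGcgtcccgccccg
Pgam1: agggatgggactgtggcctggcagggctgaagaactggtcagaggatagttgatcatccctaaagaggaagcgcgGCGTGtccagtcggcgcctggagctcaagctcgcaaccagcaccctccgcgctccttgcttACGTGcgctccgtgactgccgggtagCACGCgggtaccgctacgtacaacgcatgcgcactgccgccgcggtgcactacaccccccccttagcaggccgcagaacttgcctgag
Adm: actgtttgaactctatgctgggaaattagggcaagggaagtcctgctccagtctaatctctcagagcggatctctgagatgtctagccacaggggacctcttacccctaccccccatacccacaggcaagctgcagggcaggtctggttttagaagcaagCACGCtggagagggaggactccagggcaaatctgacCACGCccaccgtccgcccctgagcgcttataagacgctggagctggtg
Ankrd37: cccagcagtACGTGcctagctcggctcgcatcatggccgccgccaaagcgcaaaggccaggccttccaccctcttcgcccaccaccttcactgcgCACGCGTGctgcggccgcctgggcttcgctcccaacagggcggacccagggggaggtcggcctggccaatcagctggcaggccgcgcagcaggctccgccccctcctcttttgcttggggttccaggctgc
Of these genes, Bnip3 had ratios of 3.62 and 1.96. Pgam1 had 1.54 in limb, with an interval that includes the median of all genes, and 0.599 in trunk, with one wholly below it. Ankrd37 was near equal in both fractions, and Adm had no promoter interval.

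Distal intervals near the members were shared between the fractions more often than distal intervals overall. An interval was counted as distal when it touched no promoter window of any protein-coding gene, and as unique to a fraction when it shared not a single base with the list of the other fraction from that tissue. In limb EGFP+ cells 47 of the 87 distal intervals near the members were unique (54.0%, 43.0 to 64.8), against 68.5% of all distal intervals. In limb EGFP- cells it was 25 of 66 (37.9%, 26.2 to 50.7), against 56.6%. In trunk EGFP+ cells 43 of 73 were unique (58.9%, 46.8 to 70.3), against 69.1%, and in trunk EGFP- cells 23 of 56 (41.1%, 28.1 to 55.0), against 57.3%. In all 4 lists the share near the members was thus below that of the whole list, but in trunk EGFP+ cells the interval includes the latter. The share over distal intervals near genes with marked promoters alone was not computed. In both tissues the unique share was higher in EGFP+ than in EGFP- cells near the members, and this was also true of all distal intervals. With a fold of at least 4 the order near the members was reversed in limb, with 52.9% in EGFP+ and 55.6% in EGFP- cells. The shares of all distal intervals at that fold were not computed.

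Counted by gene, 20 members had a distal interval within 50 kb that was unique to EGFP+ cells of the limb and 18 one unique to its EGFP- cells, beside 21 and 16 in the trunk. The shares over all protein-coding genes were 36.6, 29.8, 35.8 and 28.2%. The members exceeded the background in every list, of both fractions, so the count does not set EGFP+ apart from EGFP-. Overlapping distal intervals of the 4 lists were then merged into 137 regions near the members, out of 43885 in all. Of these, 19 held intervals of both EGFP+ lists and of no EGFP- list (13.9%, 8.56 to 20.8), against 10.8% of all regions and 11.1% of the regions within 50 kb of a gene whose promoter was marked in all 4 lists. The opposite kind, in both EGFP- lists alone, counted 6 (4.38%, 1.62 to 9.29), against 4.58%. Regions present in all 4 lists counted 30 (21.9%, 15.3 to 29.8), against 10.3% of all regions and 15.2% of those near genes with such promoters. Regions of any EGFP+ list without EGFP- were 53 (38.7%, 30.5 to 47.4), against 46.2% of all, and those of any EGFP- list without EGFP+ were 30 (21.9%, 15.3 to 29.8), against 31.0%. Among regions near genes with promoters marked in all 4 lists these shares were 43.2 and 27.5%, which the 2 intervals include. A merged region counted as held by a list when any interval of that list overlapped it, also one that reached a promoter window, and in 8 of the 30 regions in all 4 lists and 1 of the 19 in both EGFP+ lists alone a list was present only through such an interval. The share of regions in both EGFP+ lists alone was thus near the background, with an interval that includes it. The count of 19 was 8 when all lists were cut at a −log10 q of at least 5, and 5 with a fold of at least 4. It was 14, near 12 members, when distal intervals within 1 kb of each other were joined. The counts over all regions under these settings were not computed.

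**Figure D3:**
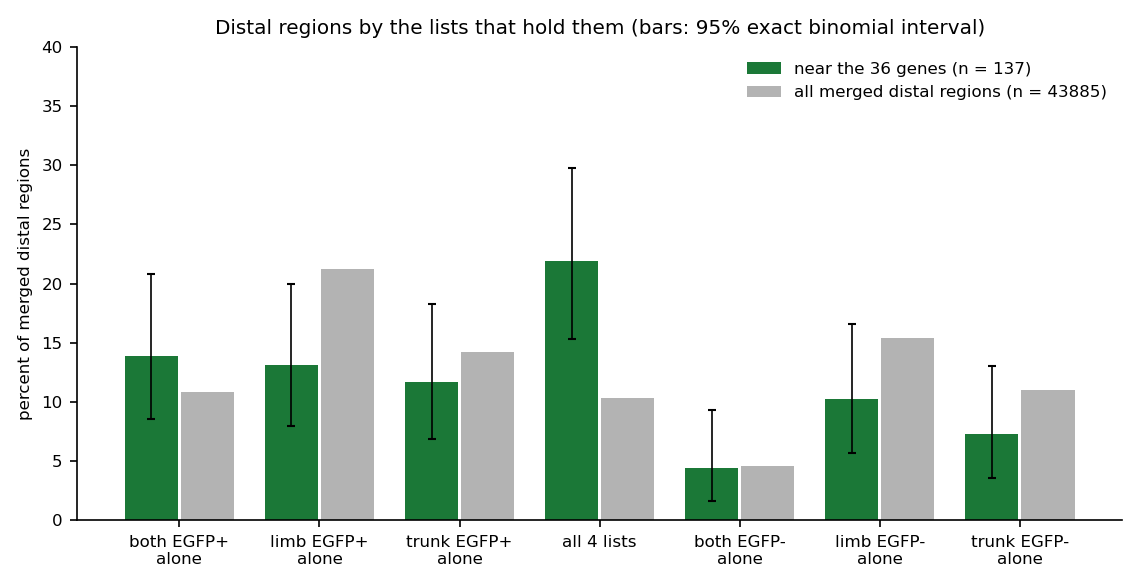
Percent of merged distal regions (y axis) held by the lists named on the x axis, for the 137 regions near the members (green, with 95% exact binomial intervals) and all 43885 regions (grey). Regions in all 4 lists make up 21.9% near the members and 10.3% of all.

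By gene, 15 of the 36 members had at least 1 region of both EGFP+ lists alone within 50 kb, against 16.5% of all protein-coding genes, and 5 had at least 1 of both EGFP- lists alone, against 8.94%. Of the 36 members 34 had a distal region of some kind, whereas 7375 of all 21581 genes had none. Ankrd37 and Slc16a3 were the members with none. Slc2a1 had 3 regions of both EGFP+ lists alone, Vhl, Ddit4 and Pkm had 2 each, and Hif1a, Epas1, Bnip3, Ndrg1, Pfkl, Pfkfb3, Aldoa, Tpi1, Pgk1, Eno1 and Eno2 had 1 each, where the region of Tpi1 and Eno2 is the same one. Some regions near Vhl, Ddit4, Pkm and Aldoa lay beside a region that also held an EGFP- interval, and some near Slc2a1 lay beside each other, as given below. The 5 members with a region of both EGFP- lists alone were Hif1a, Vegfa, Ndrg1, Aldoc and Eno1, and 3 of them, Hif1a, Ndrg1 and Eno1, are in both groups. Slc16a3 and Hk2, with the highest trunk promoter ratios, had no region of both EGFP+ lists alone within 50 kb.

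**Figure D4:**
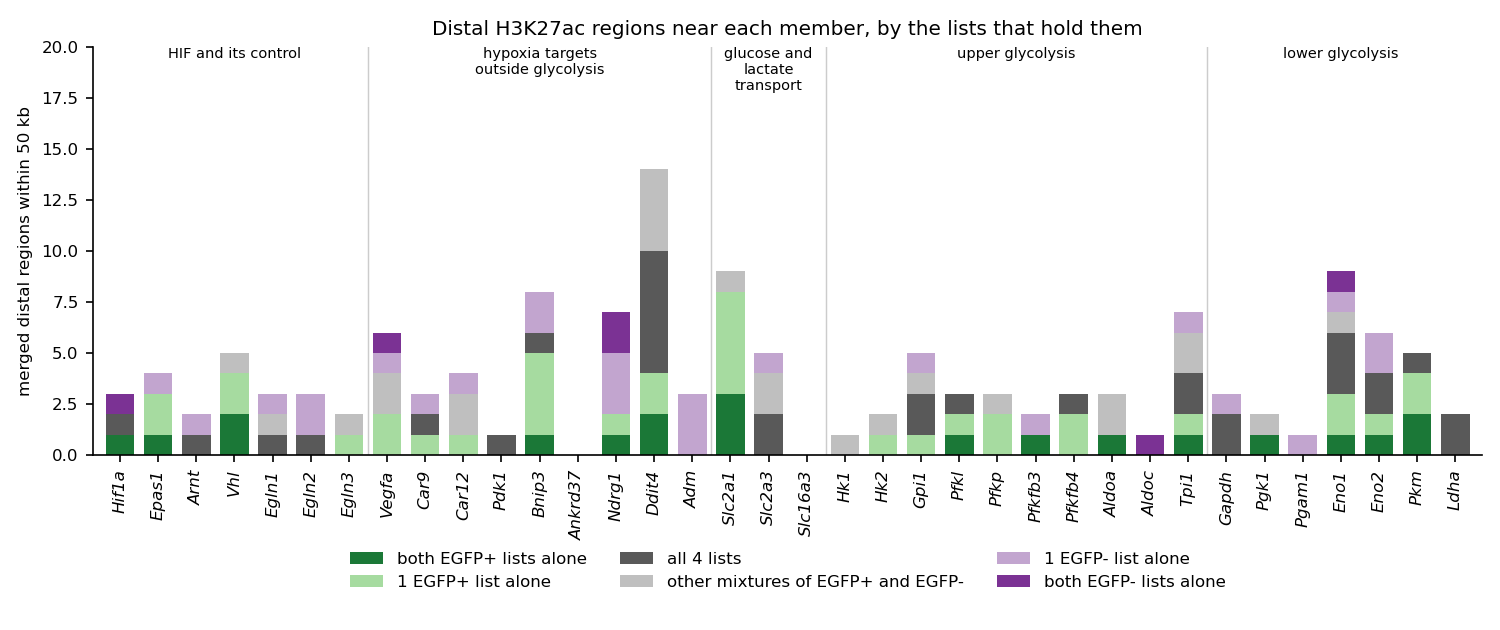
Number of merged distal regions within 50 kb of each member (y axis), stacked by the lists that hold them, from both EGFP+ lists alone (dark green) to both EGFP- lists alone (dark purple). Slc2a1 has 8 of its 9 regions in EGFP+ lists alone, several of them side by side. Ddit4 has the most regions, 14, of which 6 are in all 4 lists.

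The neighbourhood of Slc2a1 (chr4:118965908-118996365, plus strand) held 9 distal regions, of which 8 were in EGFP+ lists alone, 3 of them in both tissues. Of these, the region at −35.1 kb from the start (chr4:118930401-118931250, intergenic) had 64 reads and a −log10 p of 17.5 in limb EGFP+ cells and 59 reads and 19.6 in trunk EGFP+ cells. The region at −2.51 kb (chr4:118963259-118963539), just outside the promoter window, had 65 reads and 16.3 in limb and 38 reads and 8.10 in trunk. The region at −25.9 kb was the only one with an EGFP- interval, with a −log10 p of 10.7 in limb EGFP+ and 6.27 in limb EGFP- cells. Several regions of EGFP+ lists alone lay side by side, at −45.4 and −44.6 kb, at −36.2 and −35.1 kb, and at −3.08 and −2.51 kb. The 8 are therefore not 8 separate stretches. Those at 18.0 and 29.3 kb were in trunk EGFP+ cells alone, with 14 reads each. A region near a start site is not shown to act on that gene.

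Vhl (chr6:113600920-113608599, plus strand) had 5 regions, all downstream in introns of Irak2, a kinase of interleukin signalling. The region at 44.1 kb (chr6:113644822-113645157) had 37 reads and a −log10 p of 15.0 in limb EGFP+ cells and 22 reads and 6.92 in trunk EGFP+ cells. Another at 45.5 kb (chr6:113646059-113646765) had 34 reads and 13.4 in limb and 19 reads and 5.43 in trunk. Between them a region at 44.8 kb also held a trunk EGFP- summit, with a −log10 p of 4.64.

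The 201 bases around the strongest summit of 3 of the leading EGFP+ regions, 100 on each side, are shown from the GRCm39 plus strand, as the letters under distal marks without a peak in EGFP- cells. Capitals mark a SOX core, which occurs once, in the Slc2a1 region at −2.51 kb, and none of the 3 windows holds a HIF core. They lie at chr4:118930473-118930673, chr4:118963299-118963499 and chr6:113644891-113645091.
Slc2a1 at −35.1 kb: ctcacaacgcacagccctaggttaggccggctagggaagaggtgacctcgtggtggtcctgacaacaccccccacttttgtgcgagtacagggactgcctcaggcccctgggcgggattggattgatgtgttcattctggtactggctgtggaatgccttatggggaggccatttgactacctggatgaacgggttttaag
Slc2a1 at −2.51 kb: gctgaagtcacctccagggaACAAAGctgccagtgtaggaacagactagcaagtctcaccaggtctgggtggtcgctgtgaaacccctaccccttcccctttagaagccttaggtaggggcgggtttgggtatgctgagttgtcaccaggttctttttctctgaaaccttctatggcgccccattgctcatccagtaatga
Vhl at 44.1 kb: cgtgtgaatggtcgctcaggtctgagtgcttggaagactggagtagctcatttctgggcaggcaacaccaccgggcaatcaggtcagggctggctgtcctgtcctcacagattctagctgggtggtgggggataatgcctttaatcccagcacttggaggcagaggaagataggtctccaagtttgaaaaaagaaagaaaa

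**Figure D5:**
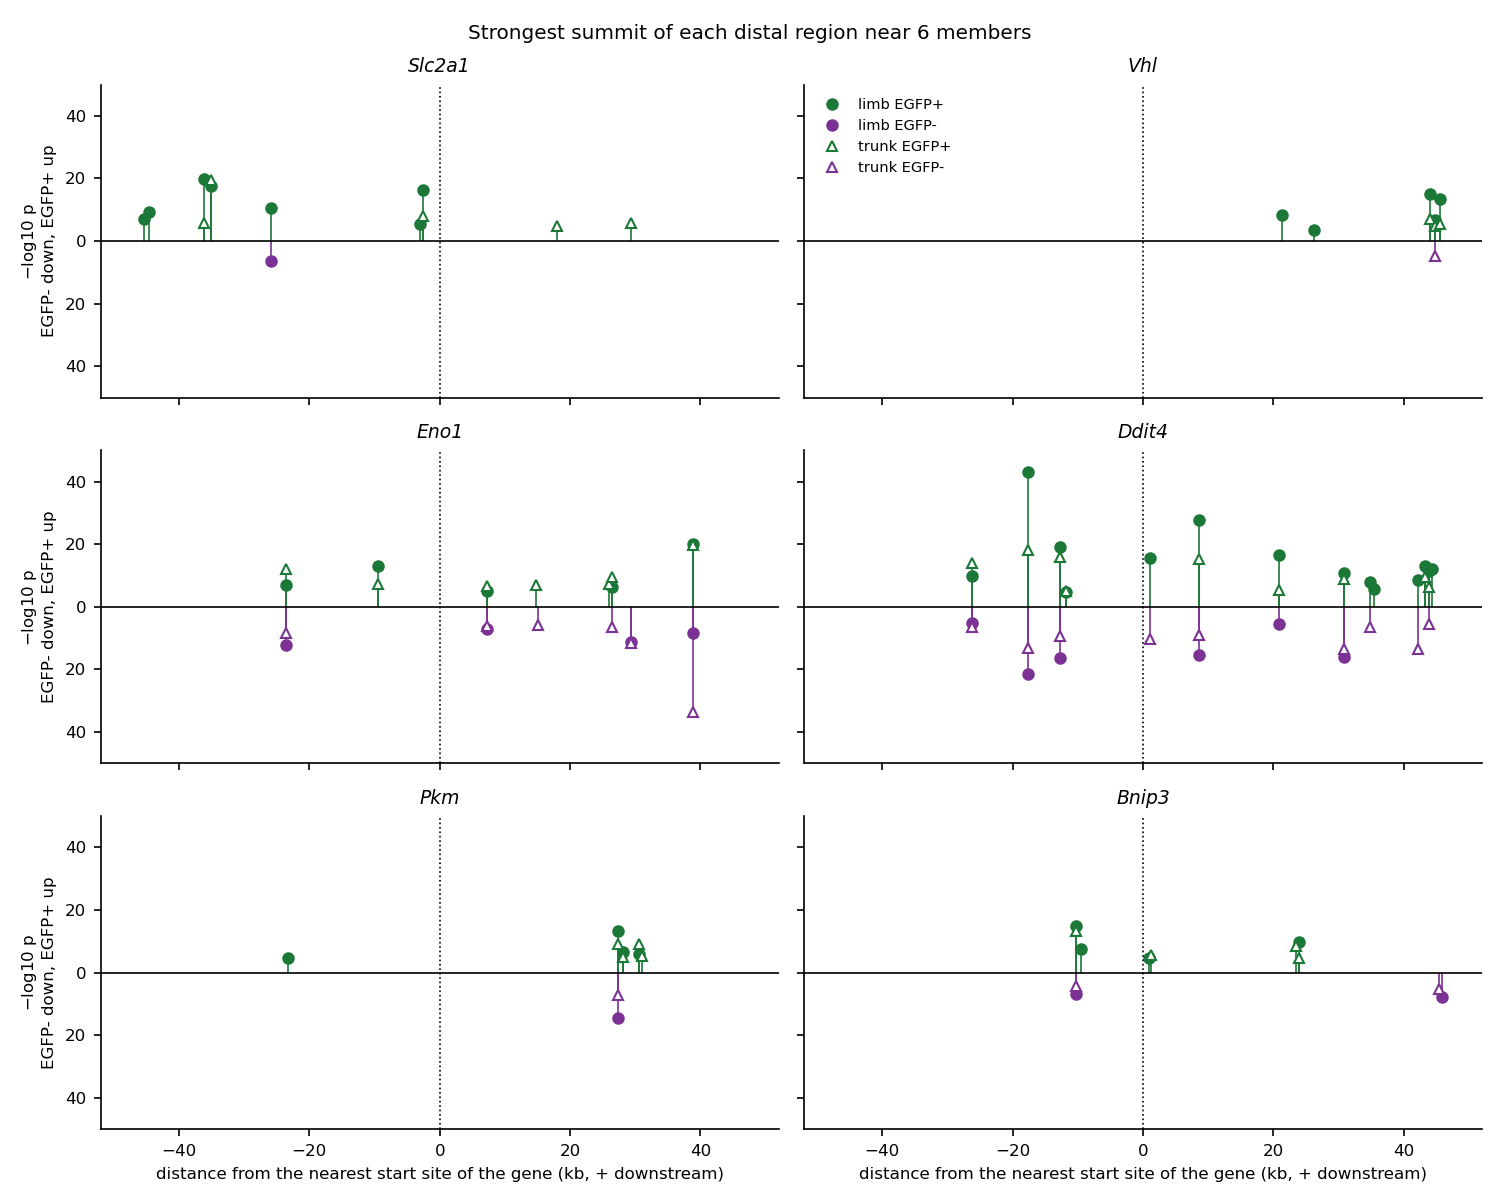
Strongest summit of each merged distal region near 6 members, by distance from the nearest start site (x axis, kb) and −log10 p (y axis, EGFP+ upward in green, EGFP- downward in purple, circles limb, triangles trunk). The Slc2a1 panel holds 1 EGFP- summit, and Ddit4 and Eno1 hold many in both fractions.

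Further regions of both EGFP+ lists alone lay near glycolysis genes. The one in an intron of Pfkfb3 at 18.5 kb (chr2:11539909-11540907) had 26 reads in each tissue, with a −log10 p of 14.6 in limb and 13.7 in trunk. Near Eno1, a region at −9.42 kb (chr4:150311093-150312210, intergenic) had 33 reads and 13.0 in limb and 25 reads and 7.17 in trunk. Near Aldoa, a region at −6.98 kb, where 1 list was present only through an interval that reached a promoter window, had a −log10 p of 11.2 and 7.72. Beside it, a region at −7.44 kb also held a trunk EGFP- summit, with 4.76. Pkm had regions at 28.1 and 30.5 kb, in introns of Gramd2a, with 6.44 and 6.02 in limb and 4.86 and 8.99 in trunk. The one at 28.1 kb lay beside a region in all 4 lists at 27.4 kb. The regions of Pfkl at −28.5 kb in an intron of Aire, of Pgk1 at 1.39 kb in its own intron and of Tpi1 and Eno2 together, 16.7 kb from the start of Tpi1, had a −log10 p of 5.48, 4.65 and 5.41 in limb and 8.96, 6.98 and 5.84 in trunk.

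Among the HIF genes and targets, the Ddit4 region at 43.3 kb (chr10:59744209-59744508, intergenic) had 44 reads and a −log10 p of 13.1 in limb EGFP+ cells and 34 reads and 9.51 in trunk EGFP+ cells. A weaker one lay at −11.8 kb, with 4.61 and 4.97. Beside the region at 43.3 kb, one at 43.8 kb also held a trunk EGFP- summit, with 5.43. The weaker one lay beside a region in all 4 lists at −12.8 kb. The Ddit4 neighbourhood was at the same time the one with the most regions in all 4 lists, the strongest of which, at −17.7 kb, had a −log10 p of 43.1, 21.5, 18.3 and 13.2 in limb EGFP+, limb EGFP-, trunk EGFP+ and trunk EGFP- cells. The regions of both EGFP+ lists alone near Bnip3 (23.9 kb), Hif1a (−5.25 kb), Ndrg1 (6.09 kb, in its intron) and Epas1 (16.3 kb, in its intron) had a −log10 p of 9.78, 7.88, 4.70 and 4.26 in limb and 4.55, 5.04, 11.4 and 5.50 in trunk.

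Near the members, regions in EGFP- lists alone were weaker than those in EGFP+ lists alone. Their median strongest −log10 p was 5.11 over 30 regions, against 6.83 over the 53 of EGFP+ lists alone and 18.0 over the 30 regions in all 4 lists. The strongest, at 29.3 kb from Eno1 (chr4:150356783-150357623, intergenic), had 20 reads and a −log10 p of 11.4 in limb EGFP- cells and 27 reads and 11.5 in trunk EGFP- cells. A region at 45.4 kb from Hif1a (chr12:73999548-74000433) had 17 and 14 reads, with 9.45 and 6.07. A region at −14.8 kb from Ndrg1 (chr15:66856240-66856989) had 23 and 20 reads, with 8.52 and 7.09. In an intron of Epas1, at 47.5 kb (chr17:87108543-87108742), a region of limb EGFP- cells alone had 16 reads and 8.51. Of the regions in EGFP+ lists alone 26 were intronic, 7 touched an exon and 20 were intergenic, and of those in EGFP- lists alone 13, 3 and 14. Neither these counts nor the medians of −log10 p were computed over all regions, so they are not set apart from the lists as a whole.

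In windows of 301 bases around the strongest summit of each distal interval near the members, a HIF core was found in 37.9% of the limb EGFP+ intervals, 47.0% of the limb EGFP-, 35.6% of the trunk EGFP+ and 48.2% of the trunk EGFP- intervals. Over all distal intervals it was found in 32.7, 34.0, 33.2 and 35.5%. Among the members' intervals unique to a fraction the share was 29.8% in limb EGFP+, 24.0% in limb EGFP-, 25.6% in trunk EGFP+ and 39.1% in trunk EGFP- cells, against 29.8, 29.5, 29.9 and 31.6% of all unique intervals of these lists. The SOX core was found in 42.6% of the unique limb EGFP+ intervals and 37.2% of the unique trunk EGFP+ intervals near the members, against 33.0 and 32.2% of all unique intervals of those lists, and in 60.0% of the 25 unique limb EGFP- intervals, against 39.3%. In the 23 unique trunk EGFP- intervals it was found in 34.8%, against 35.4%.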

How the data were processed

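H3K27ac ChIP-seq was measured in 4 populations with 1 library each. The authors sampled a similar number of reads per library, trimmed adapters with CutAdapt 1.18, mapped with Bowtie2 2.3.5.1 to GRCm39, filtered on mapping quality with Samtools, and ran MACS2 2.2.7.1 on each library with 200 bp read extension. No control library or q threshold is given in the sources used here. The deposited lists give for each summit its position, a score, which in these files follows the −log10 q, the fold of the pileup over the local background as a ratio from the authors' MACS2 run, and the deposited −log10 p and −log10 q, whose p-values and q-values the authors computed within each library. The lowest deposited −log10 q was 1.3 in each list.

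Summits of 1 start and end were joined into intervals on chromosomes 1 to 19, X and Y. Promoter windows and distances used 67388 protein-coding start sites of GENCODE on GRCm39. Reads and background at a summit were recovered from the fold, (reads + 1)/(background + 1), and the Poisson upper tail, for 100% of summits within 0.001 of the −log10 p. The median summit held 26 to 29 reads, which sets the precision. A ratio uses the strongest summit inside the promoter windows in each fraction and needs one in both, so members without a summit in 1 fraction give none. Intervals are exact (binomial or Poisson, 95%) and cover counting error only, since reads are not known to be independent molecules. No test between populations was possible with 1 library each. RefSeq promoters are on GRCm38 in their table and were matched letter for letter to GRCm39 for coordinates. On simulated data 2867 of 2867 summit reads and 2000 of 2000 intervals were recovered.

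The members and lists were chosen with earlier results of these data known. Named in full were members with a distal region of both EGFP+ lists alone, the 5 highest and 5 lowest promoter ratios per tissue, members without a promoter interval, the 8 strongest distal regions of EGFP+ and the 4 of EGFP- lists alone, and for sequences the first 4 of these EGFP+ regions and 4 promoters by the number of HIF cores in the longest stretch outside exons before the start, ties by symbol. Of these regions 1 is not reported here. The other members are given by role. Alternatives were a −log10 q of at least 5, the 20000 strongest intervals, a minimum fold of 4, 50% overlap, a gap of 1 kb, windows of 25 and 100 kb, a 500 bp promoter window, distal by the member's own promoter, scaling to the median ratio and a ratio of 2. The 5′-most start alone and unscaled reads were also used. The count of promoters with a mean of at least 40 reads was added after values were seen. The work was done in Python 3.11.15 with scipy 1.17.1, numpy 2.4.6, pandas 2.3.3 and matplotlib 3.10.9.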

Additional observations from a re-analysis of the deposited data

Results flagged for a closer look

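The promoter ratio of EGFP+ to EGFP- reads lay on opposite sides of 1 in limb and trunk for 4 members. It was 0.914 in limb and 1.43 in trunk for Arnt, 2.37 and 0.788 for Vhl, 1.54 and 0.599 for Pgam1, and 1.18 and 0.985 for Ankrd37. The counting intervals of both tissues include 1 for Arnt and Ankrd37, that of the trunk includes 1 for Vhl, and neither includes 1 for Pgam1. Measured from the medians of all genes, Ankrd37 was below in both tissues and Arnt below in limb alone. The interval of Pgam1 includes the median in limb and lies wholly below it in trunk. The EGFP+ and EGFP- summits lie on different sides of the start for Pgam1 in both tissues and for Vhl in limb. With 1 library per population the difference between limb and trunk was not tested for any of them.

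At 5 distal regions the fraction with an interval was the opposite one in the 2 tissues. Regions in limb EGFP+ and trunk EGFP- cells alone lay at 9.63 kb from Car12, with a −log10 p of 11.7 and 5.43, and at 42.2 and 34.8 kb from Ddit4, with 8.57 and 13.4 and with 7.90 and 6.38. Regions in limb EGFP- and trunk EGFP+ cells alone lay at −33.4 kb from Tpi1, with 5.34 and 7.66, and at −15.3 kb from Pgk1, with 5.08 and 5.14. These differences were not tested either.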

How the results depend on the processing

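No paired analysis was possible because each population has 1 library and the groups share only the number 1. Of 126 values recomputed under 14 settings, 94 moved by less than their counting interval or stayed within 1.5 times and 32 moved more. These values are of the members alone. Shares over all genes were computed only for the ratio counted from the median and for a mean of at least 40 reads. Under the other settings a move of the members is therefore not set apart from a move of the whole lists. With a −log10 q of at least 5 the members with a unique distal interval were 13 in limb EGFP+, 11 in limb EGFP- and 3 in trunk EGFP- cells, the unique share in trunk EGFP- cells was 19.0%, and 8 regions near 6 members were in both EGFP+ lists alone. With the 20000 strongest intervals per list the members with a unique interval were 12 in limb EGFP+ and 3 in trunk EGFP- cells, the trunk EGFP- share 22.7%, and 6 regions near 6 members were in both EGFP+ lists alone. With a fold of at least 4 these were 13 and 3 members, with 5 regions near 5 members, and the unique share was 55.6% in limb EGFP- and 75.0% in trunk EGFP+ cells. When an opposite interval within 1 kb also counted, the unique share fell to 40.2% in limb and 41.1% in trunk EGFP+ cells. Within 25 kb, 9 members in limb EGFP- and 7 in trunk EGFP- cells had a unique interval and 11 regions were in both EGFP+ lists alone, and within 100 kb 25 members had one in trunk EGFP- cells. When intervals at promoters of other genes counted as distal, the unique shares were 34.7, 20.1, 34.6 and 21.3% in limb EGFP+, limb EGFP-, trunk EGFP+ and trunk EGFP- cells. For promoters, scaling to the median ratio left 7 of the 19 members with higher EGFP+ reads in limb. A ratio of at least 2 left 7 in limb and 4 in trunk, with 0 lower in trunk, and a mean of at least 40 reads left 4 in trunk. The causes were not tested beyond what the settings leave out. Summits of 26 to 29 reads at the median limit what absence of an interval shows, since an interval missing from a list may lie just under the authors' threshold.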

Other observations

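Genes of the same pathways outside the set were also counted. Of 22 other glycolysis genes, 17 had a promoter interval in limb EGFP+, 17 in limb EGFP-, 16 in trunk EGFP+ and 16 in trunk EGFP- cells. The shares of all genes were 54.4, 51.6, 52.6 and 52.7%. Their median ratio was 1.5 in limb (1.34 over all genes), where 9 of 17 reached 1.5 (35.0% of all genes). In trunk it was 1.24 (1.18 over all genes), where 3 of 15 reached 1.5 (16.5% of all genes) and 1 was at or below its inverse (2.35%). Of these genes, Pgm1, which links glycogen to glycolysis, had the highest limb ratio, with 66, 17, 36 and 24 reads in limb EGFP+, limb EGFP-, trunk EGFP+ and trunk EGFP- cells and ratios of 4.24 and 1.71. Ldhb, the other common lactate dehydrogenase subunit, had the highest trunk ratio, with 55, 26, 38 and 20 reads and ratios of 2.31 and 2.17. Pdk4, a kinase of pyruvate dehydrogenase, had the lowest trunk ratio, 0.607, with 17 reads in EGFP+ and 32 in EGFP- cells of the trunk.

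Of 30 other HIF pathway and hypoxia target genes, 24, 24, 23 and 26 had a promoter interval in the same order of populations, against 54.4, 51.6, 52.6 and 52.7% of all genes. Their median ratio was 1.32 in limb (1.34 over all genes), where 9 of 21 reached 1.5 (35.0% of all genes) and 2 were at or below its inverse (1.5%). In trunk it was 1.23 (1.18 over all genes), where 9 of 23 reached 1.5 (16.5%) and 1 was at or below the inverse (2.35%). Of the genes for collagen modification, P4ha1 and P4ha2, collagen prolyl hydroxylases, had ratios of 1.56 and 1.16 and of 2.14 and 2.41, Plod1 of 1.97 and 1.60, and Plod2 of 1.61 and 1.63. Loxl2 had no promoter interval in any list. Lox, which cross-links collagen, was lower in EGFP+ cells of both tissues, with 20, 36, 16 and 29 reads and ratios of 0.607 and 0.631. Angptl4, a lipase inhibitor, had promoter summits in EGFP- cells alone, with 36 reads in limb and 31 in trunk. These genes were named after their values were seen, and with 1 library per population none of the differences was tested.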
